A study of Rattus norvegicus with 9 samples.

Results

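The 55 protein-coding genes named as chemokines or chemokine receptors in the deposited rat liver table were followed across normal, DEN model and PZH-administered rats. They were taken by symbol, as every protein-coding row whose name begins with Ccl, Cxcl, Ccr or Cxcr and a number, or equals Cx3cl1, Cx3cr1, Xcl1, Xcr1 or an atypical receptor Ackr1 to Ackr4, out of 32883 rows of which 22250 are protein-coding. The rule used no measured value. It gave 34 ligands (20 CC, 12 CXC and 2 others) and 21 receptors (10 CC, 6 CXC, 2 others and 3 atypical). Ackr1 was the 1 name of the rule with no matching row and was not analysed here, and each of the 55 genes had a read in at least 1 rat.

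Liver mRNA was sequenced in 3 groups of 3 male Sprague-Dawley rats. The normal control rats (N1, N3 and N12) received a normal diet. The DEN model rats (M13, M17 and M24) received weekly intraperitoneal injections of 0.01% diethylnitrosamine (DEN), a liver carcinogen that causes fibrosis and hepatocellular carcinoma, in a protocol lasting 16 weeks. The PZH administration rats (G27, G28 and G42) received the same DEN and also PZH, the traditional Chinese patent medicine Pien-Tze-Huang, so that no group received PZH without DEN. The PZH dose and the week of collection of these 9 animals are not given in the sources used here. The treatment tag of the 3 M rats in the deposited labels names PZH, and they were placed in the DEN model group by their titles together with the group names of the study's methods. Each animal was 1 library, so that the spread between replicates is a spread between animals.

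Chemokines are small secreted proteins that guide leukocytes by binding G protein-coupled receptors on the cell surface. CXC chemokines carrying an ELR motif, such as Cxcl1 and Cxcl6, attract neutrophils through Cxcr2, and the interferon-inducible Cxcl9, Cxcl10 and Cxcl11 attract T cells through Cxcr3. CC chemokines such as Ccl2 and Ccl7 attract monocytes, Ccl19 and Ccl21 guide cells with Ccr7 into lymphoid tissue, and Cxcl12 retains cells with Cxcr4. Atypical receptors bind chemokines without driving migration and remove them.

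Between 14922973 and 27161496 reads were counted per rat, and G27 was the deepest library. Levels of 1 gene between rats are given in CPM, counts divided by the library total after trimmed mean of M-values (TMM) scaling over the 9 rats, and 3 counts, taken as the detection floor, stood for 0.125 to 0.249 CPM. The TMM factors were 0.738 to 0.802 in normal, 1.21 to 1.57 in DEN model and 0.851 to 0.950 in PZH rats, and with library totals in their place the middle of all fold changes moved by 0.86 (log2) for DEN model against normal, by -0.67 for PZH against DEN model and by 0.23 for PZH against normal. All directions below are therefore relative to TMM scaling unless a value within 1 rat is given. The liver label was matched by the hepatocyte markers, whose 8 genes summed to 160700 to 173500 CPM in normal, 33830 to 78690 CPM in DEN model and 129500 to 176200 CPM in PZH rats. In whole tissue, a change in the number of cells of a type and a change in RNA per cell cannot be told apart.

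In DEN livers more of the tested ligands and receptors passed as higher than as lower against normal livers, and Cxcl12 was among the few that fell. Of the 38 members tested, 21 passed edgeR's quasi-likelihood test at an adjusted p under 0.05 (55.3%), beside 45.8% of all 14255 genes tested. The 18 that rose made up 47.4% of the members tested, beside 25.3% of all genes, and the 3 that fell made up 7.89%, beside 20.5%. With the thresholds named in the study's methods, an absolute log2 fold change above 2 and P under 0.001, 15 members passed, 14 higher and 1 lower, beside 12.3% of all genes (8.81% higher and 3.49% lower). The median log2 fold change was 1.47 over the members tested and 0.03 over all genes. Values did not overlap between the groups for 24 members (63.2%), 21 of them higher, beside 58.7% of all genes (31.9% higher and 26.8% lower). By library totals 28 members passed, beside 63.7% of all genes, 27 of them higher (71.1% of the members, beside 57.0% of all genes) and 1 lower (beside 6.72%).

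Among the ligands, 12 of 23 tested rose and 2 fell. The CXC ligand with the highest fitted change was Cxcl6, a neutrophil attractant of the ELR class. It stood at 0, 0.152 and 0.332 CPM in N1, N12 and N3 and at 17.7, 8.80 and 24.7 CPM in M13, M17 and M24. Every DEN rat was far above every normal rat, and the log2 fold change was 6.69 ± 0.68 (SE, n = 3 rats a group) with an adjusted p of 0.00026, on 6 counts in all normal rats together. Its neighbour Cxcl1, which shares the receptor Cxcr2, was at 2.18, 1.82 and 0.997 CPM in normal and 4.92, 7.01 and 6.10 CPM in DEN rats. The groups did not overlap, with a log2 fold change of 1.85 ± 0.36 and an adjusted p of 0.0039. Cxcl3, of the same class, was listed at 0 in all normal and all PZH rats and at 3.38, 0.448 and 17 CPM in M13, M17 and M24. It did not pass the filter on low counts and was not tested, and M24 alone held most of its reads.

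Promoter windows are shown for the neighbouring attractants Cxcl6 and Cxcl1, which both rose, and below for the Cxcr3 ligands. They are the 250 bases before the RefSeq start on GRCr8, 5′ to 3′ on the strand of the gene, with matches to the NF-kappaB consensus in capitals. The window of Cxcl6 lies at chr14:17596418-17596667 on the minus strand, and that of Cxcl1 at chr14:17479322-17479571 on the minus strand.
Cxcl6: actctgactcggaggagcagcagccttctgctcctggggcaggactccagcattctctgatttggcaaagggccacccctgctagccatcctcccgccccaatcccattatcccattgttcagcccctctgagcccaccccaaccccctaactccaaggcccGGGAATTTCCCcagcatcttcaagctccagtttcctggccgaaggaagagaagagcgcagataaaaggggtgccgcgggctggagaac
Cxcl1: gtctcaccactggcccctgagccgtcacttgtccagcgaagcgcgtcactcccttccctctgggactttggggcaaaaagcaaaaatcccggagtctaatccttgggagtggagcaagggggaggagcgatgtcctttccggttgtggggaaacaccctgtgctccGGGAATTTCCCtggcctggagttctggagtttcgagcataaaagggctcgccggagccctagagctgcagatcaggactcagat
Both carry the same run of capitals, made of 2 overlapping matches, at bases 88 to 78 before the start in Cxcl6 and 84 to 74 in Cxcl1. Cxcl2, in the same group of genes, also holds 2 overlapping matches, at bases 74 to 64. It did not pass edgeR's test in DEN model against normal, with a log2 fold change of 1.39 ± 0.98 and an adjusted p of 0.28. Of the 42 members with a RefSeq promoter matched by symbol, 9 held a match on either strand (21.4%), beside 6.41% of 27457 promoters, and 5 of the 16 matched members that were higher in DEN livers did. A match of letters is no evidence that the factor was bound.

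Cxcl9, Cxcl10 and Cxcl11 lie side by side on chromosome 14, between positions 17195014 and 17234712 of the deposited table, whose genome build is not given in the sources used here. They are the ligands of Cxcr3, and their results differed on the TMM scale. Cxcl10 was at 4.67, 5.24 and 3.82 CPM in N1, N12 and N3 and at 16.4, 22.1 and 27.6 CPM in M13, M17 and M24, without overlap. It rose by 2.27 ± 0.26 on the log2 scale (SE, n = 3 a group, adjusted p = 0.00040). Cxcl11 was at 17.4, 10.3 and 21.6 CPM in normal and 3.34, 7.46 and 5.56 CPM in DEN rats. Its groups did not overlap in the opposite direction, with a log2 fold change of -1.59 ± 0.37 and an adjusted p of 0.0082, which became 0.084 by library totals at -0.74. Cxcl9 was at 11.7 to 27.3 CPM in normal and 21.7 to 50.1 CPM in DEN rats, overlapping, with an adjusted p of 0.24. The deposited FPKM of Cxcl9, scaled by gene length and library total, was 6.21 to 13.5 in normal and 21.4 to 52.4 in DEN rats, without overlap.

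The 3 windows are printed as a description, and whether their letters bear on the changes was not tested. They lie at chr14:16006916-16007165 for Cxcl9, chr14:15988816-15989065 for Cxcl10 and chr14:15973478-15973727 for Cxcl11, all on the plus strand of GRCr8.
Cxcl9: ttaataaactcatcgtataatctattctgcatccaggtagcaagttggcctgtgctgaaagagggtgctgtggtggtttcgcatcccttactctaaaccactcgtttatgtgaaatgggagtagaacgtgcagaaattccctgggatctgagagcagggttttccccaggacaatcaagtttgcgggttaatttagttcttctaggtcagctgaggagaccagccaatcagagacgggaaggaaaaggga
Cxcl10: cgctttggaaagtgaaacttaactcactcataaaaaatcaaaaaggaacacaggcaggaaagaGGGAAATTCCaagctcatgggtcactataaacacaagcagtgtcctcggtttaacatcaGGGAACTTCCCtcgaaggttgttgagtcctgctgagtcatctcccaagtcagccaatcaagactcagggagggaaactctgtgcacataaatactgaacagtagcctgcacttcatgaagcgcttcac
Cxcl11: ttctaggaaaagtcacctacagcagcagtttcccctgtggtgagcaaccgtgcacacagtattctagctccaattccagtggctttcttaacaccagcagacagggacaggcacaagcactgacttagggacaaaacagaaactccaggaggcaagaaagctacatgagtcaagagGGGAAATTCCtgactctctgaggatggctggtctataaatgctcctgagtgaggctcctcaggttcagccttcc
Cxcl10 holds NF-kappaB matches at bases 187 to 178 and, overlapping each other, at 128 to 118 before its start, and Cxcl11 holds 1 at bases 74 to 65. Cxcl10 also holds the interferon-response letters, GAAA, any pair of bases and GAAA again, at bases 243 to 234, found in 3.29% of all promoters and in 2 of the 42 members, the other being Ccl19. The letters TTCNNNGAA, searched for STAT factors, occur at bases 250 to 242 of Cxcl11, in 7.52% of all promoters and in 4 of 42 members. The AP-1 letters TGACTCA, on either strand, occur in both Cxcl10 and Cxcl11, in 3.98% of all promoters and in 5 of 42 members. Cxcl9 holds none of these motifs within its window.

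Cxcl12, which binds Cxcr4 and Ackr3, had the smallest P of the members in this comparison, and it fell. Its level was 435, 565 and 472 CPM in N1, N12 and N3 and 60.8, 63.6 and 52.7 CPM in M13, M17 and M24. The DEN rats lay close together and all below the normal rats, with a log2 fold change of -3.06 ± 0.23 (SE, n = 3 a group) and an adjusted p of 9.5e-05. Cxcl16, the transmembrane ligand of Cxcr6, went the other way, from 9.41, 7.59 and 10.4 CPM in normal to 100.2, 67.3 and 141 CPM in DEN rats. Its groups did not overlap, with a log2 fold change of 3.49 ± 0.30 and an adjusted p of 0.00014. Cx3cl1, the membrane-bound ligand of Cx3cr1, was at 0.467, 1.82 and 0.166 CPM in normal and 32.7, 22.4 and 27.3 CPM in DEN rats. Every DEN rat was far above every normal rat, and the log2 fold change was 5.03 ± 0.57 with an adjusted p of 0.00040. The calls of Cxcl12 and Cxcl16 held in each of the 13 other fits of this comparison.

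**Figure D1:**
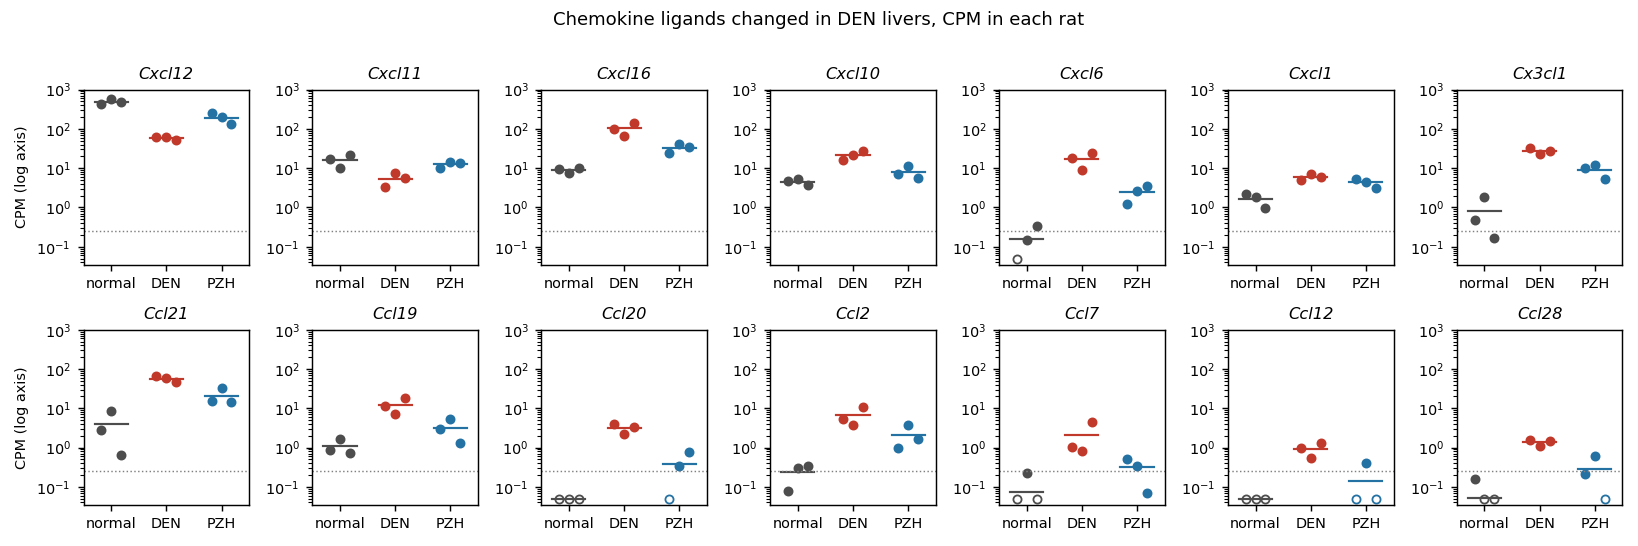
CPM of the chemokine ligands that passed the test in DEN model against normal, 1 point per rat and a bar at the group mean, on a log axis. Open circles mark rats with 0 counts, drawn near the bottom edge, as are group means of 0, and the dotted line is the highest detection floor, 0.249 CPM; Cxcl12 and Cxcl11 are lower and the other panels higher in the DEN rats.

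Of the 12 CC ligands tested 7 rose and 0 fell in edgeR's test, also at an unadjusted p under 0.05. The monocyte attractants Ccl2, Ccl7 and Ccl12 lie together on chromosome 10. Ccl2 was at 0.0778, 0.304 and 0.332 CPM in N1, N12 and N3 and at 5.35, 3.73 and 10.7 CPM in M13, M17 and M24. It did not overlap and rose by 4.76 ± 0.63 on the log2 scale (adjusted p = 0.00071), on 9 counts in the normal rats. Ccl7 had 3 counts in all normal rats, and was at 1.03, 0.796 and 4.51 CPM in the DEN rats. The ratio of summed CPM was 27.8, with a 95% counting interval of 9.34 to 137, and the adjusted p was 0.012. The 3 counts were all in N12 and M24 was the highest DEN rat, and the fitted log2 fold change of 4.64 became 3.43 without M24 and 8.30 without N12, with adjusted p of at most 0.049 without any one rat. Ccl12 had no count in any normal rat and stood at 0.983, 0.547 and 1.295 CPM in M13, M17 and M24, at least 3.98-fold higher than in normal rats set at the floor of 3 counts per library (adjusted p = 0.0044). These 3 genes were near the detection floor in normal livers and above it in every DEN liver.

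Ccl20, the ligand of Ccr6, had no count in the normal rats and stood at 3.98, 2.19 and 3.38 CPM in M13, M17 and M24. That is at least 13.4-fold higher than in normal rats set at the floor of 3 counts per library, with an adjusted p of 0.00076. The Ccr7 ligands Ccl19 and Ccl21 lie next to each other on chromosome 5. Ccl19 was at 0.856, 1.67 and 0.748 CPM in normal and 11.3, 7.11 and 17.9 CPM in DEN rats, a log2 fold change of 3.46 ± 0.46 (adjusted p = 0.00073). Ccl21 was at 2.88, 8.51 and 0.665 CPM in normal and 66.3, 59.0 and 46.7 CPM in DEN rats, a log2 fold change of 3.82 ± 0.65 (adjusted p = 0.0021). Neither overlapped between the groups, although the normal rats were spread widely for Ccl21. Ccl28, a mucosal chemokine, had 2 counts in all normal rats and was at 1.54, 1.09 and 1.504 CPM in the DEN rats. The ratio of summed CPM was 26.5, with a 95% counting interval of 7.14 to 222 and an adjusted p of 0.0032. Both counts were in N1, without which the fitted log2 fold change went from 4.55 to 7.68.

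The most abundant ligands per length did not pass the test. Ccl9, a rodent ligand of Ccr1, had a mean FPKM (the deposited level, scaled by gene length and library total) of 273 in normal and 255 in DEN livers, and Ccl6, of the same family, 87.6 and 120. On the CPM scale Ccl9 ranged from 376 to 512 in normal and stood at 154, 457 and 134 in M13, M17 and M24, so that M17 lay within the normal range. The adjusted p was 0.15 for Ccl9 and 0.24 for Ccl6. The T cell and macrophage attractants Ccl5 and Ccl4 had log2 fold changes of 0.65 and 0.51 and adjusted p of 0.11 and 0.42. The eosinophil attractant Ccl24 and the B cell attractant Cxcl13 changed by -0.73 and 0.90, with adjusted p of 0.14 and 0.37. Cxcl14 was at 3.80 to 7.23 CPM in normal and 4.66 to 6.57 CPM in DEN rats.

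Of the 15 receptors tested 6 rose and 1 fell. Cx3cr1, which marks monocyte-derived cells, was at 0.545, 0.987 and 0.332 CPM in N1, N12 and N3 and at 11.4, 8.16 and 8.82 CPM in M13, M17 and M24. The groups were well apart, with a log2 fold change of 3.90 ± 0.40 (adjusted p = 0.00027). Cxcr4, the receptor of Cxcl12, was at 1.87, 3.49 and 4.07 CPM in normal and 26.8, 10.4 and 28.3 CPM in DEN rats. M17 was the lowest DEN rat and still above each normal rat, and the log2 fold change was 2.79 ± 0.45 (adjusted p = 0.0016). The neutrophil receptor Cxcr2 was at 0.233, 0.152 and 0 CPM in normal and 1.97, 1.24 and 3.34 CPM in DEN rats, a log2 fold change of 4.0 ± 0.77 on 5 counts in the normal rats (adjusted p = 0.0036). Its groups did not overlap either.

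Ccr1, which binds Ccl3 and Ccl5, was at 0.311, 0.608 and 0.416 CPM in normal and 3.81, 3.58 and 2.67 CPM in DEN rats, with a log2 fold change of 2.89 ± 0.44 (adjusted p = 0.0013). The groups did not overlap. The receptors Cxcr3, Ccr7, Cxcr6, Cxcr5 and Xcr1 had log2 fold changes of 0.79 to 1.94 and adjusted p of 0.052 to 0.083, and did not pass. Ccr6, the receptor of Ccl20, had an adjusted p of 0.15 and Ccr9 of 0.80.

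The atypical receptors did not move together. Ackr3, which takes up Cxcl12 and Cxcl11, was at 2.72, 9.19 and 2.49 CPM in N1, N12 and N3 and at 11.9, 11.2 and 16.8 CPM in M13, M17 and M24. N12 was near the DEN rats, and the log2 fold change was 1.46 ± 0.48 with an adjusted p of 0.036, which became 0.063 without M13, 0.089 without M24, 0.12 without N1 and 0.10 without N3. Ackr2, which takes up inflammatory CC chemokines, fell, from 5.60, 7.21 and 1.58 CPM in normal to 1.41, 0.995 and 0.752 CPM in DEN rats. N3 was only just above M13, and the log2 fold change of -2.18 ± 0.56 had an adjusted p of 0.013, which became 0.054 without N12 and 0.068 by library totals. Ackr4, which takes up Ccl19 and Ccl21, was at 5.24 to 5.76 CPM in normal and 2.57 to 7.36 CPM in DEN rats, with an adjusted p of 0.77.

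**Figure D2:**
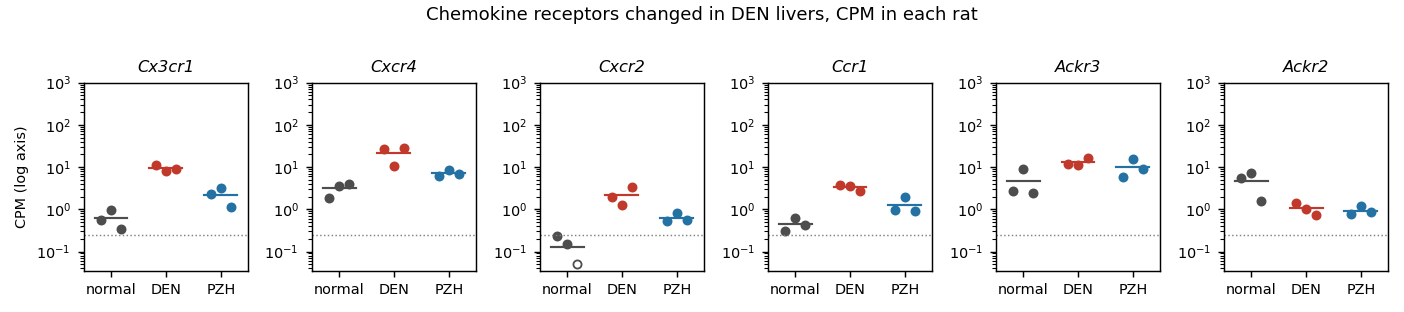
CPM of 6 chemokine receptors that passed the test in DEN model against normal, 1 point per rat and a bar at the group mean, on a log axis, with open circles at the bottom edge for 0 counts and a dotted line at the highest detection floor, 0.249 CPM. Ackr2 is the 1 receptor shown that is lower in DEN rats, and N3 lies close to M13 there.

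Levels per length were summed over the family. As deposited, and so scaled by library total, the FPKM of the ligands summed to 406 to 561 in normal, 707 to 812 in DEN model and 446 to 606 in PZH rats. Divided by the TMM factors these sums were 509 to 699, 479 to 665 and 470 to 712, and the groups overlapped. The FPKM of the receptors summed to 8.43 to 18.3, 39.0 to 84.0 and 16.8 to 31.0, or 11.4 to 22.8, 32.3 to 53.6 and 19.8 to 33.2 after division by the TMM factors. On both scales the DEN rats were above the normal rats for receptors, while shares and ratios within a rat do not depend on the scaling. Cxcl12, Ccl9 and Ccl6 together held 88.2% to 90.3% of the ligand sum in normal rats, 46.2%, 67.6% and 37.2% in M13, M17 and M24, and 73.1% to 83.5% in PZH rats. Cxcl12 alone held 13.3% to 15.8% in normal, 1.76% to 2.34% in DEN model and 5.37% to 6.48% in PZH rats. Cxcl16 held 0.637% to 1.08%, 5.93% to 16.0% and 2.002% to 4.25% in the same order, and Ccl21 0.122% to 1.46%, 10.6% to 16.6% and 2.51% to 6.80%. The share of Cxcl12 was lowest in all 3 DEN rats, and those of Cxcl16 and Ccl21 highest.

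**Figure D3:**
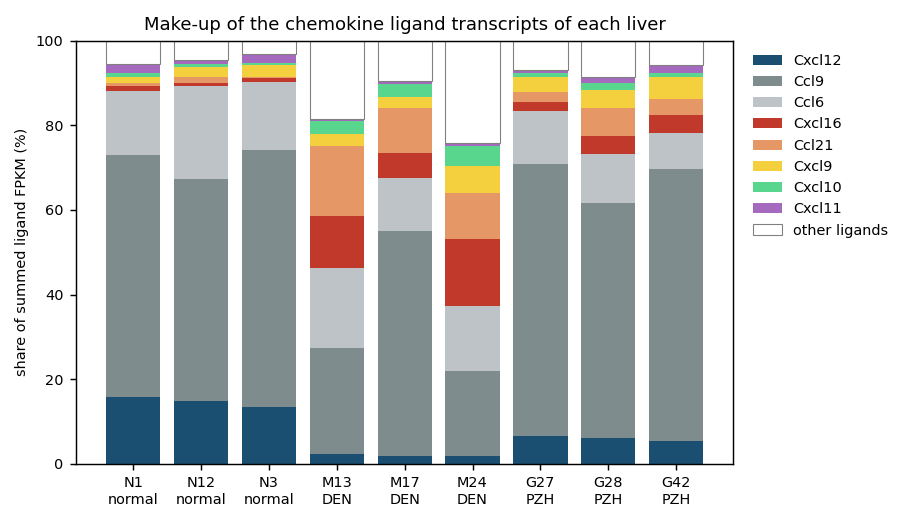
Stacked bars of the share of each ligand in the summed ligand FPKM of each rat, in percent. Cxcl12, Ccl9 and Ccl6 fill 88.2% to 90.3% of the bar in normal rats and 37.2% to 67.6% in DEN rats, where Cxcl16 and Ccl21 widen.

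Of 8 ratios of transcripts within a rat, most separated the DEN rats from both other groups. Some pairs join genes that had passed in opposite directions in these same rats, such as Cxcl12 with Cxcl16 or Cxcr4, and Cxcl10 with Cxcl11. Separation of such a pair follows from those calls and is no further support for them. The FPKM ratio of Cxcl12 to Cxcl16 was 14.5, 23.4 and 14.3 in N1, N12 and N3, 0.191, 0.297 and 0.118 in M13, M17 and M24, and 3.24, 1.45 and 1.26 in G27, G28 and G42. The ratio of Cxcl12 to its receptor Cxcr4 was 66.5 to 134 in normal, 1.07 to 3.51 in DEN model and 11.6 to 23.7 in PZH rats. Cxcl10 to Cxcl11 stood at 0.243 to 0.701, 4.06 to 6.81 and 0.550 to 1.10. For each of these 3 ratios the DEN rats overlapped neither the normal nor the PZH rats, with an exact two-sided permutation p of 0.1 on log2 ratios, the smallest that 3 against 3 rats allow. Adjusted over the 16 comparisons of 8 ratios it was 0.12. Ccl21 to Ccr7 overlapped in both comparisons, with p of 0.3 and 0.4, and Cxcl16 to Cxcr6 separated DEN from normal rats but overlapped between PZH and DEN rats, with a p of 0.6. The ratio of Cx3cl1 to Cx3cr1 was 0.212 to 0.783, 1.16 to 1.31 and 1.60 to 1.94, on 32 and 24 counts in the normal rats.

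**Figure D4:**
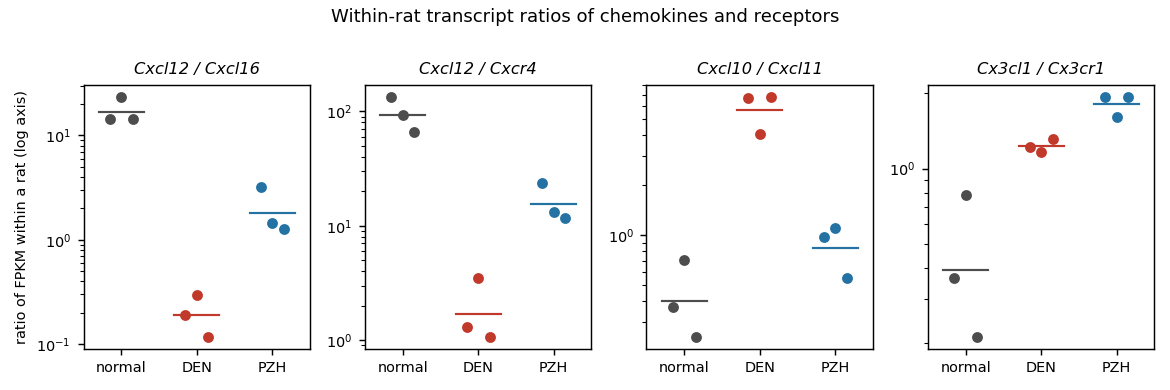
FPKM ratios within each rat, 1 point per rat and a bar at the geometric mean of the group, on log axes that differ between panels. The DEN rats lie below both other groups for Cxcl12 over Cxcl16 and Cxcl12 over Cxcr4, above both for Cxcl10 over Cxcl11, and between them for Cx3cl1 over Cx3cr1.

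Chemokine genes stand in groups along the chromosomes, taken here as members within 1000000 bases of each other. On chromosome 10 the group from Ccl2 to Ccl1 starts at position 69412017, and its 3 tested genes Ccl2, Ccl7 and Ccl12 all rose. The next group, from Ccl5 at 70739800 to Ccl4 at 70884531, had 4 tested genes, Ccl5, Ccl9, Ccl6 and Ccl4, and none passed. On chromosome 19 Cx3cl1 lies between Ccl17 and Ccl22, whose counts were too low to be tested in this comparison. Ccl17 had at most 0.233 CPM in normal and 0.125 CPM in DEN rats, and Ccl22 0.166 to 1.60 CPM and 0.249 to 0.585 CPM. On chromosome 8, in the group of receptor genes that starts with Ccr9, Ccr1 rose, and Ccr9, Cxcr6 and Xcr1 did not pass. Genes with close copies, such as Cxcl1 with Cxcl2 and Cxcl3 or Ccl6 with Ccl9, may have shared reads, since the counting of reads with several positions and of strand is not given in the sources used here.

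PZH livers were compared with DEN livers to ask which of these genes differ with the drug in DEN-injected rats. This comparison uses the same DEN rats as the one above, so a high or low DEN rat moves both, and each is given by its own values. Most members that passed were lower with PZH, and Cxcl12 and Cxcl11 were higher. Of 40 members tested 12 passed the same edgeR test, beside 19.1% of all 14272 genes. The 10 that were lower stand beside 10.3% of all genes, and the 2 that were higher beside 8.72%. Only Cxcl6 and Cx3cr1 passed the thresholds of the study's methods, beside 2.43% of all genes. Values did not overlap for 19 members (47.5%), 16 of them lower, beside 41.1% of all genes (23.0% lower and 18.1% higher). The median log2 fold change was -0.73 over the members and 0.01 over all genes. By library totals 22 members passed, beside 43.8% of all genes, 21 of them lower (52.5% of the members, beside 39.9% of all genes) and 1 higher (beside 3.9%). The count of 12 became 1 without M13, 3 without M24, 6 without G42 and 7 without G27.

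Cxcl12 stood at 250, 195 and 137 CPM in G27, G28 and G42. All 3 PZH rats were above all 3 DEN rats and below all 3 normal rats, and the log2 fold change against DEN rats was 1.75 ± 0.25 (SE, n = 3 a group, adjusted p = 0.0093). It was the only member whose call held in all 13 other fits of this comparison, including each fit without 1 rat, where its adjusted p stayed at or under 0.047. Cxcl11 stood at 10.04, 14.1 and 13.9 CPM in PZH rats, all above the DEN rats. It was higher by 1.25 ± 0.32 on the log2 scale (adjusted p = 0.033), with adjusted p of 0.081 to 0.10 without M13, M24, G28 or G42 and 0.14 by library totals, at 0.62.

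The neutrophil attractant Cxcl6 was at 1.26, 2.56 and 3.46 CPM in PZH rats, below every DEN rat. Its log2 fold change was -2.81 ± 0.48 (adjusted p = 0.013), with an adjusted p of 0.051 without M13. Its receptor Cxcr2 was at 0.519, 0.829 and 0.564 CPM, also below every DEN rat, at -1.75 ± 0.50 (adjusted p = 0.044). That call was lost without any one of M13, M24, G27, G28 or G42, with adjusted p of 0.083 to 0.17. Cxcl1 was at 5.45, 4.56 and 3.10 CPM in PZH rats, overlapping the DEN rats, with an adjusted p of 0.36.

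Cx3cl1 was at 10.2, 11.7 and 5.15 CPM in G27, G28 and G42, and its receptor Cx3cr1 at 2.25, 3.11 and 1.13 CPM. Both were below every DEN rat, at -1.57 ± 0.31 (adjusted p = 0.017) and -2.09 ± 0.38 (adjusted p = 0.014) on the log2 scale. The adjusted p of Cx3cr1 became 0.060 without M13, and that of Cx3cl1 0.071 without M13 and 0.052 without M24. Cxcl16 was at 24.3, 42.4 and 34.1 CPM in PZH rats, lower by -1.58 ± 0.31 on the log2 scale (adjusted p = 0.016), and 0.051 to 0.061 without M13, M24 or G42. Cxcl10 was at 7.10, 11.3 and 5.57 CPM, at -1.43 ± 0.31 (adjusted p = 0.021), and 0.054 to 0.074 without M13, M24, G27 or G42. Cxcr4 was at 6.06, 8.49 and 6.77 CPM, at -1.59 ± 0.37 (adjusted p = 0.026), and 0.059 to 0.097 without M13, M24, G27, G28 or G42. In each of these genes the PZH rats lay below all DEN rats.

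The lymphoid ligands were lower as well. Ccl21 was at 14.97, 33.2 and 14.8 CPM in G27, G28 and G42, with a log2 fold change of -1.42 ± 0.34 (adjusted p = 0.026), and 0.055 to 0.095 without M13, M24, G27 or G42. Ccl19 was at 2.90, 5.32 and 1.27 CPM, with a log2 fold change of -1.90 ± 0.52 (adjusted p = 0.039), and 0.078 to 0.13 without M13, M24, G27 or G42. Ccl20 was at 0, 0.345 and 0.776 CPM, with a log2 fold change of -3.16 ± 0.87 on 16 counts in the PZH rats (adjusted p = 0.040), and 0.10 to 0.13 without M13, M24 or G28. PZH and DEN rats did not overlap for these 3 genes.

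Some members that rose in DEN livers did not pass against PZH. The monocyte attractants Ccl2, Ccl7 and Ccl12 had log2 fold changes of -1.61 ± 0.58, -2.64 ± 0.86 and -2.85 ± 1.06, with adjusted p of 0.086, 0.066 and 0.096. For Ccl2, G28 at 3.80 CPM lay above M17 at 3.73 CPM. Ccl28 and Ccr1 changed by -2.27 and -1.35 on the log2 scale, with adjusted p of 0.079 and 0.056 and no overlap. Ackr3 and Ackr2 were at 5.97 to 15.2 CPM and 0.779 to 1.17 CPM in PZH rats, and overlapped the DEN rats, with adjusted p of 0.49 and 0.84. A p above the threshold does not show that these levels were alike.

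**Figure D5:**
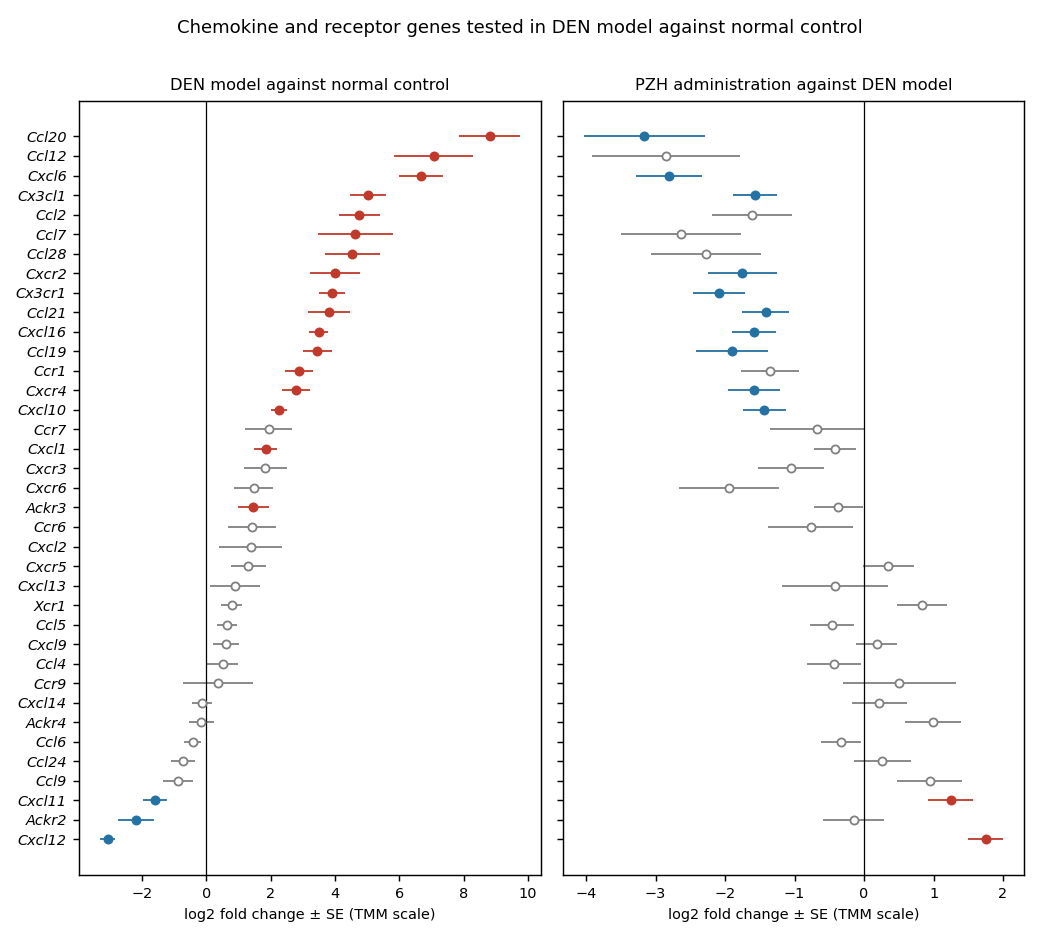
Log2 fold changes of 37 members tested in DEN model against normal, with the standard error as a bar, in that comparison (left) and in PZH against DEN model (right), which share the DEN rats and have different axes. Filled red points passed an adjusted p under 0.05 as higher, filled blue points as lower and open grey points did not pass; Cxcl12 lies at -3.06 on the left and 1.75 on the right, and the points of Ccl20 and Ccl12 on the left, with 0 counts in normal rats, depend on the prior count of the fit.

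PZH livers were also set against normal livers. This comparison shares rats with each of the others, and fewer genes passed. Of 31 members tested 6 passed (19.4%), beside 5.21% of all 13348 genes. The 4 that were higher were Cxcl16, Cx3cl1, Cxcl6 and Ccl2, beside 4.07% of all genes, and the 2 that were lower were Cxcl12 and Ackr2, beside 1.15%. Cxcl16 was higher by 1.87 ± 0.27 on the log2 scale (adjusted p = 0.0077), a call that held in each of the 13 other fits. Cxcl12 was lower by -1.35 ± 0.25 (adjusted p = 0.019), with adjusted p of 0.052 to 0.099 without N1, N12, G28 or G42. Ackr2 was lower by -2.35 ± 0.55 (adjusted p = 0.045), a call lost in 8 of 13 other fits, with adjusted p of 0.062 to 0.15 without N1, N12, G27, G28 or G42 and 0.061 by library totals. Cx3cl1 was higher by 3.44 ± 0.66 (adjusted p = 0.021), Cxcl6 by 3.85 ± 0.81 (adjusted p = 0.030) and Ccl2 by 3.12 ± 0.75 (adjusted p = 0.048). Without N1 or G28 the adjusted p of Cx3cl1 was 0.089 or 0.090, without N1, N12, G28 or G42 that of Cxcl6 was 0.086 to 0.11, and Ccl2 lost its call without N1, N12, N3, G28 or G42, at 0.088 to 0.21. The count of 6 became 1 without N1 or without G28, 2 without G42 and 3 without N12. Only Cx3cl1 passed the thresholds of the study's methods, beside 2.32% of all genes.

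Values did not overlap for 16 members between PZH and normal rats, 14 of them higher and 2 lower, beside 24.0% of all genes (14.1% higher and 9.93% lower). The median log2 fold change was 0.81 over the members and -0.02 over all genes. By library totals 7 members passed, beside 6.81% of all genes, 6 higher (beside 6.13%) and 1 lower (beside 0.682%). Xcr1, the receptor of Xcl1 on cross-presenting dendritic cells, was at 1.56 to 1.995 CPM in normal, 2.98 to 3.21 CPM in DEN model and 3.67 to 8.22 CPM in PZH rats. On the TMM scale each group lay above the one before without overlap. Neither step passed, with adjusted p of 0.077 for DEN model against normal and 0.14 for PZH against DEN model, and 0.058 for PZH against normal. The deposited FPKM of Xcr1, scaled by library total, was 0.853 to 1.16 in DEN model and 0.824 to 1.82 in PZH rats, and these overlapped.

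The machinery below the receptors was described with a list of 70 signalling genes, of which 68 had a row and were tested. In DEN livers 35 were higher and 5 lower than in normal livers, beside 25.3% and 20.5% of all genes, and the median log2 fold change was 0.82. By library totals 58 were higher and 0 lower, beside 57.0% and 6.72% of all genes. Rgs1, which shuts off G proteins, Ptk2b, an adhesion kinase, and Pik3cg, the PI3-kinase of G protein-coupled receptors, rose by 2.37, 2.25 and 2.23 on the log2 scale. Plcb1, a phospholipase C, Bcar1, Stat2 and Wasl fell by 1.33, 0.84, 0.82 and 0.77 on that scale. By role, 6 of 9 genes of receptor shut-off, 6 of 10 of phospholipase and PI3-kinase, 8 of 14 of the cytoskeleton, 4 of 5 Src and Tec kinases, 4 of 9 G proteins, 2 of 8 of adhesion kinases and Rap1, 3 of 4 of the oxidase and others, and 2 of 9 of JAK, STAT and NF-kappaB rose.

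Against DEN livers, 13 of the 68 signalling genes were lower and 1 was higher in PZH livers, beside 10.3% and 8.72% of all genes. In either direction they were 14 of 68, a share near the 19.1% of all genes, and the median log2 fold change was -0.58. Ncf1, a subunit of the phagocyte oxidase, Pik3cg and Rgs2 fell by 1.52, 1.36 and 1.27 on the log2 scale, and Plcb1 rose by 1.29. By library totals 52 were lower and 1 higher, beside 39.9% and 3.9% of all genes. The 14 became 0 without M13, 1 without M24, 3 without G42 and 7 without G28. Against normal livers, Gnai1, Ptk2b and Pak1 were higher in PZH livers by 1.74, 1.48 and 1.35, beside 4.07% of all genes, none was lower, also at an unadjusted p under 0.05, and none passed without N1 or without G28. These genes were called in the same edgeR fits as the members.

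A list of 11 related genes outside the names of the family, of which 10 were tested, was read in the same fits. In DEN livers 3 of the 10 were higher and 3 lower, beside 25.3% and 20.5% of all genes. In DEN livers Cd74, a receptor of the chemokine-like cytokine Mif, Pf4, a platelet chemokine, and Ccrl2, an atypical binding protein of chemerin, rose by 2.17, 2.02 and 1.18 on the log2 scale. Rarres2, which encodes chemerin, Sdc4 and Dpp4, a peptidase that cuts chemokines, fell by 2.54, 2.16 and 0.70. In PZH livers Rarres2 and Sdc4 were higher than in DEN livers by 1.97 and 1.34, and Pf4 fell by 1.76. These 2 higher and 1 lower of 10 stand beside 8.72% and 10.3% of all genes. None of the 10 passed between PZH and normal livers in edgeR's test, where 1 was higher and 2 were lower at an unadjusted p under 0.05.

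Markers of the cells that make or answer chemokines were read beside these genes, and they did not all move the same way. Of all genes tested, 25.3% were higher and 20.5% lower in DEN than in normal livers. The summed CPM of 6 neutrophil markers was 2.26 to 2.58 in normal, 16.6 to 36.8 in DEN model and 4.83 to 5.19 in PZH rats, with Mpo and Elane at 0 in all normal rats, and 4 of 4 tested rose in DEN livers. For 7 T cell markers it was 23.2 to 46.2, 78.8 to 125 and 37.5 to 45.2, with 5 of 5 tested higher in DEN livers. Cd4 made up most of this sum in every rat, with 29.0 of 33.1 CPM in N1, 82.9 of 97.8 CPM in M13 and 33.6 of 39.9 CPM in G27. The summed CPM of 7 monocyte and macrophage markers was 261 to 438, 558 to 953 and 241 to 377, with 3 higher and 1 lower, and for 5 Kupffer cell markers 446 to 870, 198 to 334 and 176 to 550, with 4 of 5 lower. The sums over 6 NK cell markers overlapped, at 9.88 to 13.1, 9.55 to 14.8 and 5.43 to 11.5, and so did those over 5 platelet markers, at 6.32 to 15.6, 6.85 to 11.7 and 3.95 to 12.7. Those over 5 B cell markers were 1.90 to 2.33, 2.19 to 9.32 and 1.11 to 2.73, and over 5 dendritic cell markers 12.7 to 17.01, 25.3 to 44.1 and 20.5 to 28.9, with 1 of 4 tested higher in DEN livers. Against DEN livers, 4 of 4 neutrophil, 6 of 7 monocyte and macrophage and 1 of 5 T cell markers were lower in PZH livers, beside 10.3% of all genes. So were 1 of 4 dendritic cell and 1 of 2 platelet markers tested, and 0 of 5 Kupffer cell, 0 of 4 NK cell and 0 of 1 B cell markers. The platelet marker called was the chemokine Pf4, already given among the related genes. It was also the 1 of 2 platelet markers that was higher in DEN than in normal livers.

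Stellate cell and myofibroblast markers summed to 125 to 173 CPM in normal, 530 to 1633 CPM in DEN model and 236 to 290 CPM in PZH rats, with 6 of 7 higher in DEN livers. In PZH livers 5 of 7 were lower than in DEN livers, beside 10.3% of all genes. Col1a1 alone was 1058 of the 1633 CPM in M24. Cholangiocyte markers summed to 12.1 to 19.8, 194 to 634 and 79.3 to 93.3 CPM, with 5 of 5 higher in DEN livers and 5 of 5 lower in PZH than in DEN livers. Sinusoidal endothelial markers summed to 349 to 450, 189 to 371 and 288 to 429 CPM, with 1 of 6 higher and 3 lower in DEN livers. Of the hepatocyte markers 3 of 8 were lower in DEN livers. Against DEN livers, 2 of 8 hepatocyte and 1 of 6 sinusoidal endothelial markers were higher in PZH livers, beside 8.72% of all genes. The part of these cell types in the changes of the chemokines and receptors was not tested.

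Rats of a group differed in a similar order for many members. Among the 18 members that rose in DEN livers, M24 was the highest DEN rat for 11 and M17 the lowest for 13, whereas over all genes tested M24 was the highest for 33.6% and M17 the lowest for 38.7%. M17 also had the highest summed hepatocyte markers of the DEN rats, at 78690 CPM beside 47500 in M13 and 33830 in M24, and the lowest sums of neutrophil, T cell, stellate and cholangiocyte markers. In the PZH group G28 was the highest for 14 of these 18 members, beside 25.1% of all genes. These members share a rat and are not independent.

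Of the 55 genes, 14 did not pass the filter on low counts in any comparison, so no test of them is given. They were Ccl1, Ccl11, Ccl17, Ccl25, Ccl26, Ccl27, Cxcl3, Cxcl17, Xcl1, Cxcr1, Ccr1l1, Ccr4, Ccr8 and Ccr10. Apart from Cxcl3, each stayed at or below 1.46 CPM in every rat. Ccl25, the ligand of Ccr9, was at 0.641, 0.149 and 0.836 CPM in M13, M17 and M24 and had no count in the other 6 rats. Ccl11, an eosinophil attractant, was at 0.257, 0.448 and 0.919 CPM in the DEN rats, at 0 in normal and at most 0.130 CPM in PZH rats. Ccr8 was at 0.428, 0.298 and 1.46 CPM in the DEN rats, at most 0.0778 CPM in normal and 0.260 CPM in PZH rats. Cxcl17 was at 0.171, 0.149 and 0.585 CPM in the DEN rats, at 0 in normal and at most 0.0865 CPM in PZH rats. The other genes, Cxcl3 aside, were too low for a difference to be tested at this depth.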

How the data were processed

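Liver mRNA of 9 rats was sequenced by the authors. The submitters' processing notes name fastp, HISAT2 2.1.0, StringTie 1.3.3b and edgeR 3.30.3, without their order. The genome build and the handling of strand and of reads with several positions are not given in the sources used here. The deposited table holds raw counts per gene and FPKM values that the authors scaled by library total and a fixed gene length; recomputed from the counts, FPKM values agreed to a relative deviation of 0.000395 at 10 or more counts. Columns of group means and of the authors' own fold changes and P values were not used.

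Counts were filtered with filterByExpr, scaled by TMM and tested with edgeR 4.0.16 (R 4.3.3; glmQLFit, glmQLFTest) on the 6 rats of each comparison, with Benjamini-Hochberg adjustment over all genes tested and a call at an adjusted p under 0.05. CPM used TMM factors over all 9 rats. FPKM values were used for levels between genes and ratios within a rat. With 14922973 to 27161496 counts per rat, a floor of 3 counts was set, and intervals and floors cover counting error only. The alternatives were DESeq2 1.42.0, library totals, other filters, 1 fit of all 9 rats, limma 3.58.1 on log2(FPKM + 0.1), the deepest library thinned, and leaving out each rat. The scripts were tested on simulated data.

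The genes and lists were chosen with earlier results of these data known. Members were named with their values in all rats when they passed in DEN model against normal or PZH against DEN model, up to 30 by smallest P, and the others by range. Cxcl3, Cxcl17, Ccl11, Ccl25, Ccr8 and Xcr1 were singled out after their values were seen. Of the signalling and related lists, up to 4 higher and 4 lower genes by largest change were named in each comparison, and marker lists were given as counts and sums. Of the signalling list, 2 names matched no row and were not analysed here. Some named genes counted in the totals are not reported here. Promoters came from RefSeq (GRCr8), matched by symbol for 42 of 55 genes.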

Additional observations from a re-analysis of the deposited data

How the results depend on the processing

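No gene named for a call changed direction under any alternative tried, and the deepest library thinned to the depth of the next left each count of calls within 1.5 times. Requiring 10 counts in every rat left 17 of the members to test in DEN model against normal, of which 10 passed and 4 passed the thresholds of the study's methods, and 2 and 0 in PZH against normal; that filter removes genes that are low in one group. In PZH against DEN model the members called were 22 by library totals and 23 by limma on FPKM, those past the thresholds 8 by either, and the signalling genes called 24 with DESeq2, 53 by library totals and 50 by limma. In PZH against normal DESeq2 called 10 members, and those past the thresholds were 5 with DESeq2, 3 by library totals or with no filter, 2 with all 9 rats in 1 fit and 4 by limma; apart from the scaling that FPKM and library totals share, the cause was not tested. Leaving out each rat in turn gave 20 to 29 members, 11 to 14 past the thresholds and 27 to 40 signalling genes in DEN model against normal, 1 to 17, 0 to 2 and 0 to 16 in PZH against DEN model, and 1 to 6, 0 to 3 and 0 to 3 in PZH against normal. With 2 rats left in a group, calls near the threshold were lost, and members under 3 counts in every library of both groups could not be compared at this depth. No paired analysis was possible because the groups share no replicate numbers.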
